A study of Mus musculus with 19 samples.

Results

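The proteasome is the barrel-shaped protease that degrades ubiquitin-tagged proteins in the cytoplasm and nucleus. The genes examined here are its constitutive subunits, found as the rows whose gene symbol is Psma, Psmb, Psmc or Psmd followed by a number. The inducible subunits Psmb8, Psmb9 and Psmb10 were left out of the set, and members had to average 1 read or more in the 19 labelled libraries. In all 36 mouse symbols matched, and 32 of them had a row in the table of 50854 genes. All 32 passed the read minimum, as did 18652 genes of the table. The genes Psmb5, Psmb11, Psmc6 and Psmd6 were not analysed here.

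The core of the proteasome is a stack of rings, the outer pair of alpha subunits (Psma genes) guarding the entry pore and the inner pair of beta subunits (Psmb genes) holding the protease sites. A regulatory cap sits on the core. The base of the cap has ATPases (Psmc genes) that unfold the substrate and scaffold or ubiquitin-receptor subunits (Psmd1, Psmd2 and Psmd4), while its lid (other Psmd genes) removes ubiquitin through Psmd14. Psmd5, Psmd9 and Psmd10 are not part of the finished particle: they are chaperones that hold the ATPases while the base is put together. In myeloid cells exposed to interferon, inducible beta subunits replace the constitutive ones to form the immunoproteasome, which favours peptides for antigen presentation. Subunit genes are known to respond together to the transcription factor Nfe2l1 when proteasome activity is short.

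The libraries were bulk RNA-seq of cells sorted as monocytes from the bone marrow of female REP mice, 8 to 12 weeks old, which carry spectrally distinct fluorescent reporters for chemokine receptors, CCR1 and CCR2 among them. Cells were called CCR2+ve or CCR1/2+ve by the reporters. There were 4 libraries of resting CCR2+ve, 4 of resting CCR1/2+ve, 4 of inflamed CCR2+ve and 3 of inflamed CCR1/2+ve monocytes. The label group inflamed CCR1 had 4 more. The study's model of inflammation was a subcutaneous osmotic pump that released IL-3, IL-6, GM-CSF and IFNα for a week, and every group, resting or inflamed, carried the reporters. Nothing in the labels ties a library to 1 mouse, so the p-values measure only the spread between these libraries, which may in part be technical.

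Total counts were 22268658 to 30502009 per library. Levels below are CPM, counts scaled to the TMM-adjusted size of each library, and levels of different genes are compared only as CPM per kb of exon. Monocyte markers summed to between 26058 and 49433 CPM in the libraries of the resting and inflamed CCR1/2+ve and CCR2+ve groups. The inflamed CCR1 libraries stood apart, since their summed monocyte markers were 7500.4 to 12266 CPM while 11 neutrophil markers summed to between 152590 and 193250 CPM, against 453 to 749.7 in inflamed CCR2+ve monocytes. Ccr2, the receptor that defines the other groups, averaged 5.82 CPM in inflamed CCR1 and 1251 CPM in inflamed CCR2+ve libraries, and Csf1r, the receptor for the monocyte growth factor CSF-1, averaged 17.7 and 1504 CPM. The monocyte label of the inflamed CCR1 libraries therefore goes against their markers, and they are described last and by their label only.

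All 32 members had reads in every group, over a wide range of levels. Leaving out Psma8, mean levels ran from 28.1 to 740 CPM in resting CCR2+ve monocytes, with a median of 182 CPM. Per kb of exon the highest in resting CCR2+ve cells were Psma7, an alpha subunit, at 241 CPM per kb and Psmb2, a beta subunit without protease activity, at 238 CPM per kb. Psma7 counted 743, 794, 716 and 709 CPM in the resting CCR2+ve libraries. The ranges of these 2 genes per kb were not separated, as Psmb2 was the higher of the pair in 2 of the 4 libraries. The lowest per kb beside Psma8 was the chaperone Psmd9, at 3.87 CPM per kb, with 24.5, 29.2, 27.1 and 31.4 CPM. In the inflamed CCR2+ve libraries Psmb2 counted 455, 436, 380.0 and 302 CPM and was the highest per kb, at 326 CPM per kb beside 319 for Psma7, and the lowest beside Psma8 was Psmd5, at 2.23 CPM per kb. Among the 28 structural subunits the lid scaffold Psmd3 was the lowest per kb in each of the 19 libraries.

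Psma8, the testis-specific alpha subunit that stands in for Psma7 in germ cells, was near the floor throughout. It counted 1.65, 1.43, 1.33 and 0.748 CPM in resting CCR2+ve and 2.30, 3.03, 1.61 and 1.60 CPM in resting CCR1/2+ve libraries. In the inflamed CCR2+ve libraries it counted 1.73, 1.63, 3.05 and 2.32 CPM, and in the inflamed CCR1/2+ve libraries 1.60, 1.5 and 2.20 CPM. The inflamed CCR1 libraries had 2.50, 2.40, 1.57 and 2.59 CPM. None of the tests called it.

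**Figure D1:**
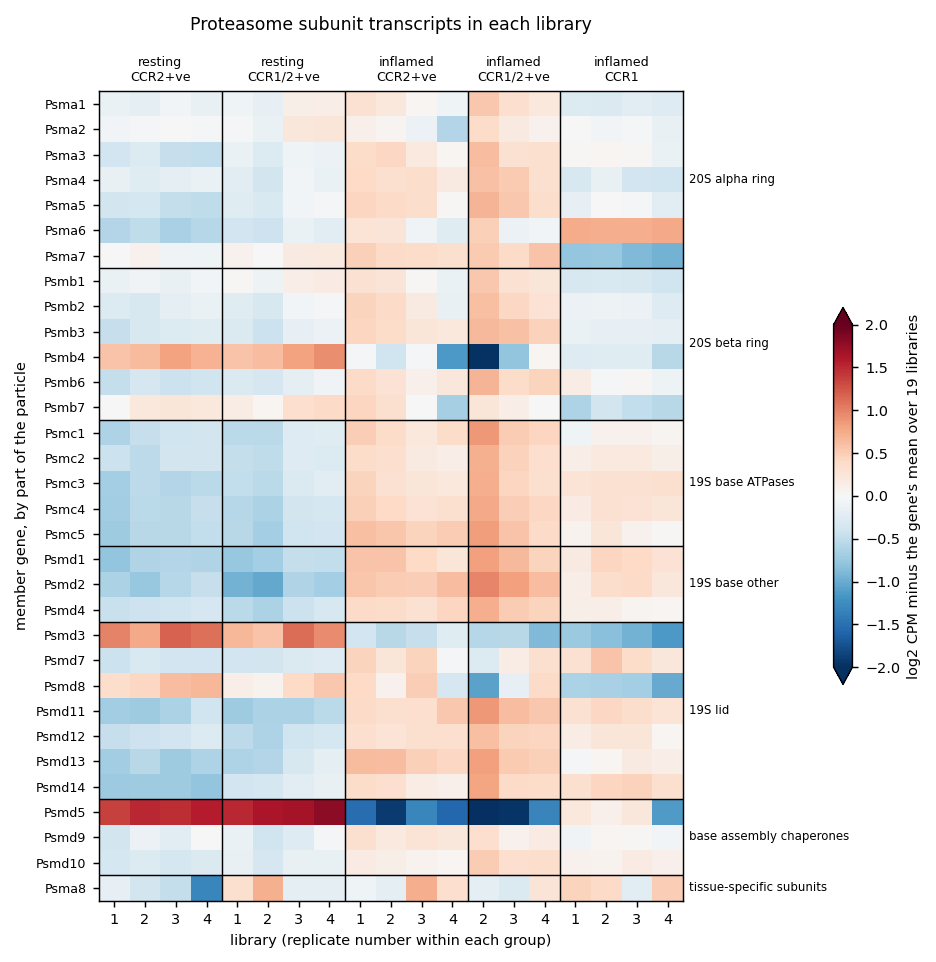
Log2 CPM of the 32 members (rows, by part of the particle) in 19 libraries (columns, by group and replicate number), each less the gene's mean over all libraries; red is above and blue below the mean, and values beyond 2 take the end colours. Most rows turn from blue in the resting to red in the inflamed CCR1/2+ve and CCR2+ve libraries, while Psmd5, Psmd3, Psmb4 and Psmd8 run the other way.

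Resting CCR1/2+ve and CCR2+ve monocytes were compared to see whether the 2 populations differ before inflammation. In CCR1/2+ve monocytes 9 of the 32 members were higher and 0 lower (edgeR quasi-likelihood test, adjusted p below 0.05), beside 8.44% of all genes tested called higher and 8.44% lower. Among genes of at least 10 CPM on average, 15.8% were higher and 15.3% lower. The differences were small, with a median of 0.15 over the members on the log2 scale. The median was 0.03 over all genes and −0.02 over genes of at least 10 CPM. Of the members called, 0 reached a log2 difference of 1, beside 2.34% of all genes higher and 1.9% lower. By part, 3 of 7 alpha, 2 of 6 beta, 1 of 5 ATPase and 2 of 7 lid genes were higher, as was 1 of the 3 chaperones.

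Psmd14, the deubiquitinase of the lid, was the clearest. It counted 192, 198, 217 and 228 CPM in resting CCR1/2+ve and 153, 154, 154 and 145 CPM in resting CCR2+ve libraries, so the groups did not overlap. The log2 difference was 0.54 ± 0.07 (SE, n = 4 and 4, edgeR adjusted p = 0.0003).

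The alpha subunits Psma6, Psma5 and Psma3 followed. Psma6 counted 139, 135, 165 and 154 CPM in resting CCR1/2+ve against 119.8, 128, 115 and 121 CPM in resting CCR2+ve libraries (log2 difference 0.37 ± 0.07, edgeR adjusted p = 0.0052). Psma5 counted 135, 129, 154 and 156 CPM against 124, 125, 114 and 112 CPM (0.35 ± 0.08, edgeR adjusted p = 0.0095). For both genes every CCR1/2+ve library was above every CCR2+ve library. Psma3 counted 217, 196, 223 and 218 CPM against 182, 197, 173 and 169 CPM, and there the lowest CCR1/2+ve library fell below the highest CCR2+ve library (0.32 ± 0.08, edgeR adjusted p = 0.013). Their unique counts are less certain, since 49.1% of the 50-base windows of Psma5 and 15.4% of those of Psma3 occur in another gene's transcripts. The same holds for 17.8% of Psmd2, 17.8% of Psmb3, 14.1% of Psmc1 and 11.6% of Psma4.

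Psmb6, which carries the caspase-like protease site, counted 294, 284, 317 and 341 CPM in resting CCR1/2+ve and 258, 284, 267 and 271 CPM in resting CCR2+ve libraries (log2 difference 0.27 ± 0.07, edgeR adjusted p = 0.021). The lowest CCR1/2+ve library lay just above the highest CCR2+ve library. Psmb7, with the trypsin-like site, counted 84.3, 78.2, 95.9 and 98.5 CPM against 75.7, 87.5, 89.7 and 88.0 CPM, and the groups overlapped (0.14 ± 0.08, edgeR adjusted p = 0.29). The other members called were the beta subunit Psmb1, the ATPase Psmc3, the lid subunit Psmd13 and the chaperone Psmd5, at log2 differences of 0.24, 0.27, 0.29 and 0.25.

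The call count of this comparison depended on the model. Replicate numbers paired these libraries, and with the number as a block 15 members were higher, while a fit of all 19 libraries together called 1 and leaving out resting CCR2+ve replicate 3 left 3. The shares of all genes called in these other fits are not given here, so such changes may not be particular to the members. The proliferation genes moved with the members, as 20 of 20 tested were higher in resting CCR1/2+ve monocytes with a median log2 difference of 0.93, and neutrophil markers summed to 5812 ± 1521 CPM there (SD, n = 4) against 954 ± 492 CPM in resting CCR2+ve monocytes (SD, n = 4). Monocyte markers summed to 26058 to 37631 CPM in resting CCR1/2+ve and 39479 to 44510 CPM in resting CCR2+ve libraries, and dendritic cell markers to 153 to 392 CPM and 749 to 2151 CPM. The part of these lists in the result was not tested. The inducible subunits Psmb8 and Psmb10 were lower in resting CCR1/2+ve monocytes, at −0.25 and −0.28. In bulk RNA, more cells of a kind and more RNA per cell cannot be told apart.

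The promoters of members that moved in opposite directions under inflammation are shown for 5 genes because all of them match the same loose pattern of letters. They were picked after the matches were seen. Of the 32 members 25 matched an entry of the RefSeq promoter table (GRCm38.p6), with 27 promoters of 250 bases before to 50 after the transcript start. The pattern was a loosened core of the antioxidant response element, TGANNNNGC on either strand. The base after TGA, C in the stricter core, was left free. The pattern occurred in 55.6% of the member promoters and in 41.3% of all 32851 promoters. Nfe2l1 and Nfe2l2 bind the element itself with a small Maf partner, and a match to the looser letters need not be that element. Among the matches in capitals below, only that of Psmb6 has C after TGA. The CCAAT box, CCAAT on either strand, occurred in 40.7% and 37.4%. Each line below runs 5′ to 3′ on the gene's strand from 170 bases before the start to 30 after it. The match to TGANNNNGC is in capitals as it reads on that strand. Psmb6 lies at chr11:70525187-70525386 (+), Psmd12 at chr11:107479358-107479557 (+), Psmd13 at chr7:140882224-140882423 (+), Psmb4 at chr3:94886929-94887128 (-) and Psmd5 at chr2:34870933-34871132 (-).
Psmb6: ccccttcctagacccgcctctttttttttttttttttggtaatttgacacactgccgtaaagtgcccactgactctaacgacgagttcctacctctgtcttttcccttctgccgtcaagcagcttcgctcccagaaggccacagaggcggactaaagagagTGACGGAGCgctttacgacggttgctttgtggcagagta
Psmd12: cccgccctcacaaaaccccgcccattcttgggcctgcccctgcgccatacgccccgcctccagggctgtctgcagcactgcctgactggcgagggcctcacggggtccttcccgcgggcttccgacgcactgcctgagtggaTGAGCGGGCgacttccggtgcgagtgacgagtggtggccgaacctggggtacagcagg
Psmd13: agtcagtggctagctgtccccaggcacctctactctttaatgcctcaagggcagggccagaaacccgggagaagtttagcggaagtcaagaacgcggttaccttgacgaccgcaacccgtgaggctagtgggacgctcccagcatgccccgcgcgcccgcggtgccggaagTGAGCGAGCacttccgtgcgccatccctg
Psmb4: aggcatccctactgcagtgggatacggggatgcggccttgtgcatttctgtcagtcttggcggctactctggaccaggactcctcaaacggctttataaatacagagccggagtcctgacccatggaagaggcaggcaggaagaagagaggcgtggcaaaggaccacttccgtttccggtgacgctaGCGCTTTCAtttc
Psmd5: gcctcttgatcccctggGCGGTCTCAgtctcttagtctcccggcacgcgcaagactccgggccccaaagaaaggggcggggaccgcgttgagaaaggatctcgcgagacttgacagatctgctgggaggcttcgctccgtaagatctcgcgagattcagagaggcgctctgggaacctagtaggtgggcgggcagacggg
Psmb6, Psmd12 and Psmd13 rose under inflammation and Psmb4 and Psmd5 fell. Of the 20 members with a promoter entry that were higher in inflamed CCR2+ve monocytes 11 held a match to the pattern, as did 3 of the 3 that were lower. A match was held by 0 of the 2 not called and by 14 of all 25. These counts are of genes, whereas the shares of 55.6% and 41.3% are of promoters. A match describes these letters in this window and does not show binding.

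Inflamed CCR2+ve monocytes were then compared with resting CCR2+ve monocytes. Transcripts of most members were higher after inflammation. Of the 32 members 23 rose and 4 fell, beside 21.9% of all genes higher and 25.9% lower (edgeR, adjusted p below 0.05). Among genes of at least 10 CPM, 38.9% were higher and 32.7% lower. The median log2 difference over the members was 0.59, against −0.10 over all genes and 0.10 over genes of at least 10 CPM. The summed level of the 32 genes was 6415 ± 182 CPM in resting (SD, n = 4) and 9499 ± 658 CPM in inflamed CCR2+ve monocytes (SD, n = 4), with no overlap of libraries. Summed erythroid markers were 90.9 to 289 CPM in resting and 0.689 to 3.41 CPM in inflamed CCR2+ve libraries, and dendritic cell markers, which overlapped, 749 to 2151 CPM and 1255 to 4531 CPM. Their part in the result was not tested. With a fold cutoff of log2 1 added, 4 rose and 3 fell, beside 9.37% and 19.2% of all genes.

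The rise was not even over the particle. All 5 ATPases and all 3 base scaffold and receptor genes rose, with median log2 differences of 0.81 and 1.02. In the lid 5 of 7 rose and 2 fell (median 0.63). Of the alpha ring 5 of 7 rose (median 0.42), and of the beta ring 3 of 6 rose and 1 fell (median 0.27). Summed per part, the ATPases went from 1046 ± 54 to 1921 ± 124 CPM (SD, n = 4 and 4), whereas the beta ring went from 1429 ± 57 to 1811 ± 219 CPM. The difference between the parts was not tested.

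Psmd13, a lid subunit, counted 146, 160.4, 144 and 153 CPM in resting and 367, 363, 327 and 314 CPM in inflamed CCR2+ve libraries, and the groups did not overlap. The log2 difference was 1.11 ± 0.10 (SE, n = 4 and 4, edgeR adjusted p = 1.5e-07). Psmd2, a large scaffold of the base whose counts are limited by shared sequence as given above, counted 316, 290.1, 330.0 and 357 CPM at rest and 719, 700.4, 693 and 749.9 CPM when inflamed (1.08 ± 0.09, edgeR adjusted p = 1.8e-07). The resting and inflamed libraries lay far apart, by more than the width of either group.

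Psmc5, an ATPase, counted 129, 143, 142 and 149.9 CPM at rest and 319, 309, 286 and 297 CPM when inflamed (1.03 ± 0.09, edgeR adjusted p = 2.2e-07). Psmd1, the other large base scaffold, counted 129, 146, 148 and 146 CPM at rest and 329.6, 329, 294 and 263 CPM when inflamed (1.02 ± 0.10, edgeR adjusted p = 6.0e-07). Neither gene overlapped between the groups. Of all 32 members, 22 had every inflamed library above every resting one, beside 22.2% of all genes. These 22 were all among the 23 that rose, of which only Psmb2 overlapped.

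The 4 that fell were Psmd5, Psmd3, Psmb4 and Psmd8. Psmd5, which holds Psmc1 and Psmc2 during assembly of the base (GRCm38 chr2:34849734-34874968, minus strand), counted 122, 135, 132 and 142 CPM in resting and 16.6, 12.6, 19.2 and 16 CPM in inflamed CCR2+ve libraries. Each inflamed library was far below each resting one. The log2 difference was −3.11 ± 0.14 (SE, n = 4 and 4, edgeR adjusted p = 1.2e-10), the widest of the 32 in this comparison.

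Psmd3 (chr11:98682554-98695979, plus strand), a lid subunit, counted 73.2, 62.5, 83.3 and 79.2 CPM at rest and 28.2, 25.1, 26.9 and 31 CPM when inflamed (−1.49 ± 0.12, edgeR adjusted p = 7.2e-08). Psmb4 (chr3:94884093-94886961, minus strand), a beta subunit without a protease site of the core, counted 171, 179, 202 and 187 CPM at rest and 113, 88.0, 113 and 52.0 CPM when inflamed (−1.09 ± 0.18, edgeR adjusted p = 0.00015). In neither gene did the groups overlap, though inflamed replicate 4 lay well below the other inflamed libraries for Psmb4.

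Psmd8 (chr7:29174188-29180701, minus strand), a lid subunit, was the least certain of the 4. It counted 242, 253, 292 and 303 CPM at rest and 251, 203, 267 and 152 CPM when inflamed, and the groups overlapped (−0.39 ± 0.15, edgeR adjusted p = 0.040). That call was lost with DESeq2 (adjusted p = 0.067) and with 6 of the 8 libraries left out in turn. Exons of these 4 genes share at most 0.594% of their 50-base windows with another gene's transcripts.

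Of the protease-site genes, Psmb6 rose and Psmb7 was not called. Psmb6 counted 467, 437, 384 and 418 CPM in inflamed CCR2+ve libraries, above all 4 resting libraries (0.59 ± 0.09, edgeR adjusted p = 0.0001). Psmb7 counted 102, 95.0, 76.7 and 47.8 CPM, on either side of the resting values (−0.16 ± 0.17, edgeR adjusted p = 0.47). The alpha subunits Psma1 and Psma2 and the beta subunit Psmb1 were not called either, at 0.19 ± 0.10, −0.16 ± 0.13 and 0.15 ± 0.10 on the log2 scale.

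**Figure D2:**
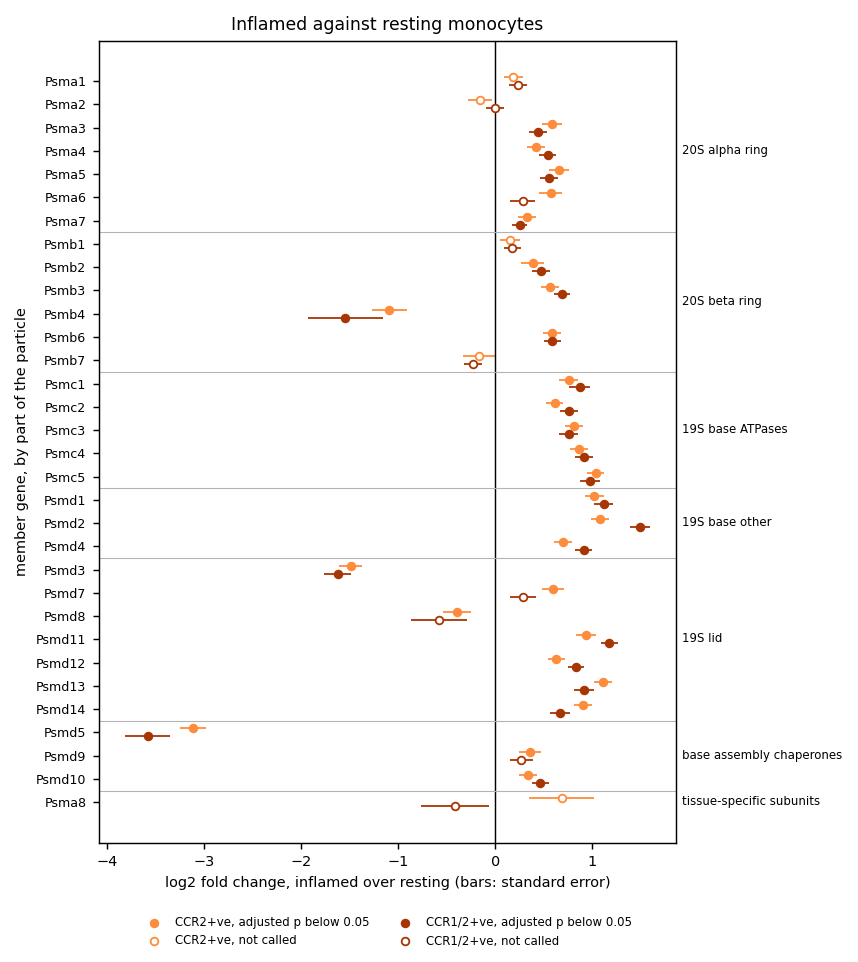
Log2 fold change of each member, inflamed over resting, with its standard error, in CCR2+ve (light) and CCR1/2+ve (dark) monocytes; filled points have an adjusted p below 0.05. The base ATPases and scaffolds lie between 0.61 and 1.49 in both populations, while Psmd5 lies at −3.11 and −3.58.

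Inflamed CCR1/2+ve monocytes were compared with resting CCR1/2+ve monocytes in the same way. Here 20 of 32 members rose and 3 fell, beside 20.6% of all genes higher and 25.4% lower, and beside 39.8% and 31.8% of genes of at least 10 CPM. The median was 0.51 over the members, −0.25 over all genes and 0.11 over genes of at least 10 CPM. The summed level went from 6817 ± 620 CPM (SD, n = 4) to 10752 ± 962 CPM (SD, n = 3), again with no overlap. Markers of other cell types moved with this change: summed neutrophil markers were 4639 to 8038 CPM in resting and 1529 to 2188 CPM in inflamed CCR1/2+ve libraries, dendritic cell markers 153 to 392 CPM and 878 to 1115 CPM, and erythroid markers 56.2 to 175 CPM and 1.31 to 2.94 CPM. Their part in the result was not tested. Past a log2 difference of 1 as well, 3 rose and 3 fell, beside 9.16% and 19.4% of all genes. All 5 ATPases (median 0.87) and all 3 base scaffold and receptor genes (median 1.12) rose, as did 4 of 7 in the lid, 4 of 7 in the alpha ring and 3 of 6 in the beta ring.

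Psmd2 rose the most, from 255, 242, 324 and 307 CPM at rest to 972, 872 and 749.7 CPM when inflamed (1.49 ± 0.10, n = 4 and 3, edgeR adjusted p = 3.6e-07). Psmd11, a lid subunit, counted 164, 173, 175 and 186 CPM at rest and 492, 413 and 392 CPM when inflamed (1.18 ± 0.09, edgeR adjusted p = 7.8e-07). Psmd1 counted 131, 138, 159.7 and 158 CPM at rest and 395, 347 and 304 CPM when inflamed (1.12 ± 0.10, edgeR adjusted p = 2.0e-06). All 3 genes were far above their resting range in each inflamed library.

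Psmd4, the ubiquitin receptor of the base, counted 204, 191, 219 and 236 CPM at rest and 491, 419 and 403 CPM when inflamed (0.91 ± 0.09, edgeR adjusted p = 5.2e-06). Psmb6 counted 577, 461 and 487 CPM in the inflamed libraries, above its resting libraries (0.59 ± 0.09, edgeR adjusted p = 0.00019). Psmb7 counted 89.9, 83.6 and 76.4 CPM, which overlapped its resting values (−0.23 ± 0.09, edgeR adjusted p = 0.069). The pattern of these genes over the parts of the particle can be read in the plot of log2 fold changes.

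Psmd5, Psmd3 and Psmb4 fell in this population too. Psmd5 counted 136, 147, 150.3 and 165 CPM at rest and 9.50, 12.2 and 19.1 CPM when inflamed (−3.58 ± 0.23, edgeR adjusted p = 8.6e-07). Psmd3 counted 58.1, 54.5, 80.0 and 70.7 CPM at rest and 24.8, 25 and 20.0 CPM when inflamed (−1.62 ± 0.14, edgeR adjusted p = 1.6e-06). Neither gene overlapped between the groups.

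Psmb4 counted 172, 177, 202 and 219.7 CPM at rest and 29.5, 66.6 and 118 CPM when inflamed (−1.54 ± 0.39, edgeR adjusted p = 0.010), so that the inflamed libraries were all lower but spread widely among themselves. Psmd8 showed the same order of inflamed libraries, at 91.2, 169.9 and 249 CPM against 209, 201, 252 and 278 CPM at rest, and was not called (−0.58 ± 0.29, edgeR adjusted p = 0.14). Inflamed CCR1/2+ve replicate 2 was the lowest of the group for both genes and the highest for Psmd2, Psmd11, Psmd1 and Psmd4. Without it Psmb4 was at −1.17 (edgeR adjusted p = 0.00057), and 21 members rose and 4 fell, the share of all genes in that fit not being given. Psmb4 was not called when resting replicate 1 (adjusted p = 0.068) or resting replicate 2 (adjusted p = 0.065) was left out.

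**Figure D3:**
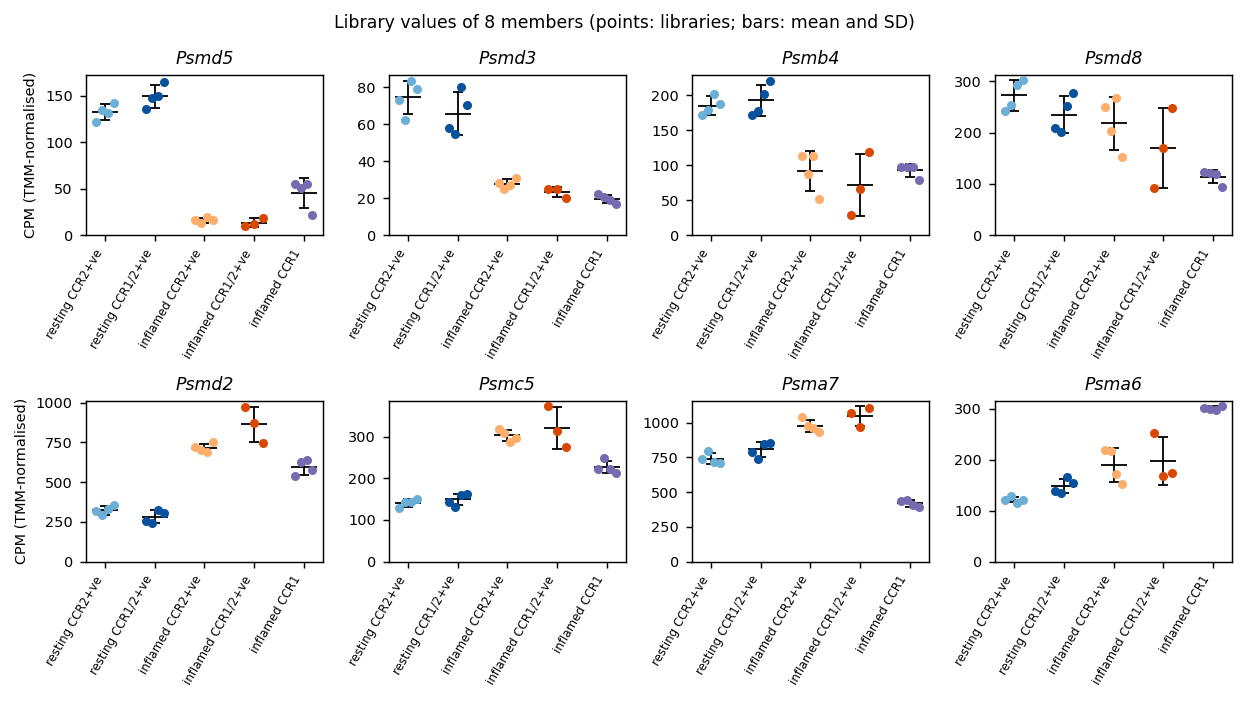
CPM of 8 members in each library (points) with the mean and SD of the group (bars), each panel with its own axis from 0. Psmd5 falls from 122 to 165 CPM at rest to 9.50 to 19.2 CPM in the inflamed CCR1/2+ve and CCR2+ve libraries, and Psma7 is lowest in the 4 inflamed CCR1 libraries.

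The spread of transcript levels within the particle was wider in the inflamed libraries. Over the 28 structural subunits the SD of log2 CPM per kb was 0.95 to 1.02 in the 8 resting libraries and 1.21 to 1.48 in the 11 inflamed libraries. The inflamed CCR1 libraries were among the latter, at 1.25 to 1.31. This spread was not computed for other genes, so the widening may not be particular to the particle. The summed chaperones of the base were lower under inflammation while the ATPases they hold were higher. Psmd5, Psmd9 and Psmd10 summed to 226 ± 12 CPM in resting and 141 ± 5 CPM in inflamed CCR2+ve monocytes (SD, n = 4 and 4), although Psmd9 and Psmd10 each rose there, by 0.36 and 0.34.

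**Figure D4:**
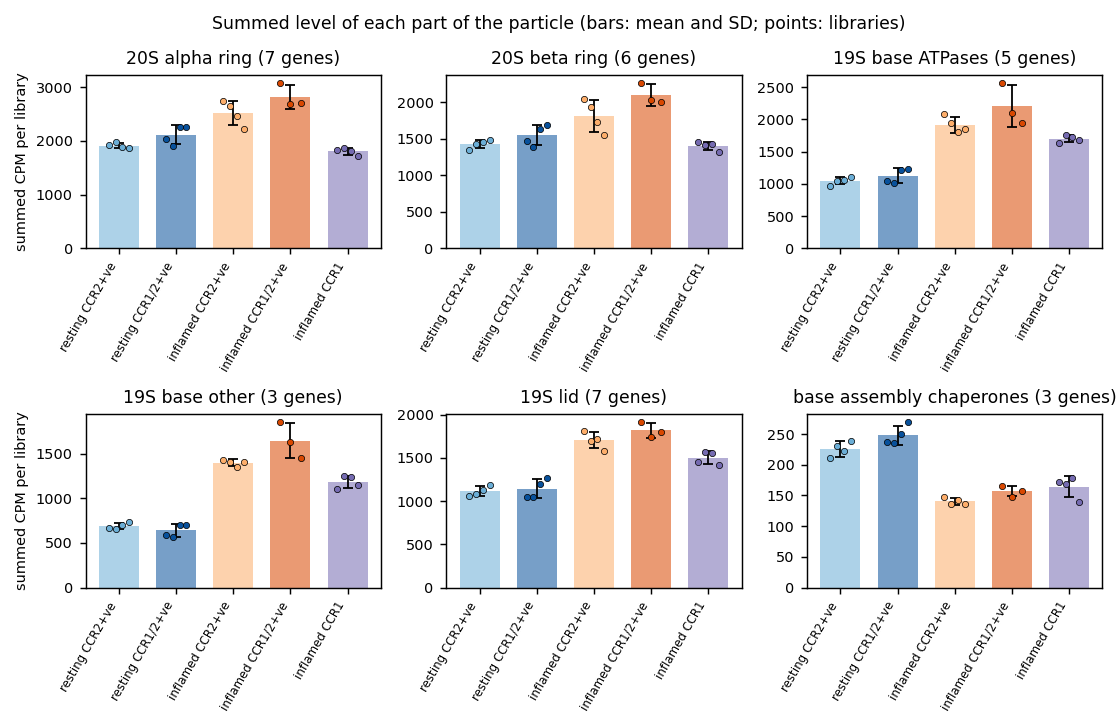
Summed CPM of each part of the particle in each library (points), with group means (bars from 0) and SD. The base ATPases rise from a mean of 1046 to 1921 CPM in CCR2+ve monocytes, and the summed base assembly chaperones fall from 226 to 141 CPM. Among these chaperones Psmd5 alone falls, from 133 to 16.1 CPM, while Psmd9 and Psmd10 rise.

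No member passed the test between the populations once inflamed. Inflamed CCR1/2+ve against inflamed CCR2+ve monocytes gave 0 of 32 members higher and 0 lower by edgeR and by DESeq2, beside 0.123% of all genes higher and 0.0643% lower. Without adjustment 4 members had p below 0.05, beside 4.44% of all genes higher and 4.54% lower. The median over the members was 0.17, against −0.03 over all genes and −0.005 over genes of at least 10 CPM. By sign alone 25 of 32 members were higher in CCR1/2+ve, beside 8385 of all 18652 genes. With 1 library left out the member median ran from 0.09 (without inflamed CCR1/2+ve replicate 2) to 0.25 (without inflamed CCR1/2+ve replicate 4). The lowest adjusted p was 0.45, for the chaperone Psmd10 at a log2 difference of 0.28 ± 0.11.

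The test of whether inflammation acted differently in the 2 populations, an interaction term over 15 libraries, also called 0 members in each direction by edgeR and by DESeq2, beside 0.241% and 0.155% of all genes. Without adjustment 3 members had p below 0.05, beside 5.73% and 7.24% of all genes. These were Psmd2 (0.37 ± 0.14, edgeR adjusted p = 0.27), Psma8 (−1.14 ± 0.48, edgeR adjusted p = 0.32) and Psmd5 (−0.52 ± 0.24, edgeR adjusted p = 0.38), where a positive value is a larger rise in CCR1/2+ve monocytes. A miss at this size does not show that the populations responded alike.

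Genes around the particle went in either direction, and their counts stand beside 21.9% of all genes higher and 25.9% lower in inflamed CCR2+ve and 20.6% and 25.4% in inflamed CCR1/2+ve. Several of the short lists below lie near those shares. Of the inducible beta subunits, Psmb10 rose in inflamed CCR2+ve and in inflamed CCR1/2+ve monocytes, by log2 0.42 and 0.77. Psmb8 and Psmb9 were not called in either, at 0.11 and −0.10 in CCR2+ve and 0.04 and −0.16 in CCR1/2+ve. Inflamed libraries of Psmb8 spread to either side of the resting range. They were 147, 436 and 443 CPM in CCR1/2+ve against 279 to 338 CPM at rest, and 291 to 601 CPM in CCR2+ve against 364 to 427 CPM. Of 6 ubiquitin and E1 genes, 3 rose and 2 fell in CCR2+ve, and 3 rose and 3 fell in CCR1/2+ve. The polyubiquitin gene Ubb (1.16 and 1.53) and the E1 enzyme Uba1 (1.44 and 1.49) were among those that rose in both. Uba6, the other E1 enzyme, was among those that fell in both, at −0.33 and −0.32.

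Of 9 activators, inhibitors and proteasome-bound factors, 2 rose and 4 fell in CCR2+ve, and 3 rose and 4 fell in CCR1/2+ve monocytes. The nuclear activator Psme3 fell in both, at −2.83 and −2.41, as did the small lid component Sem1 (−1.0 and −1.10), while the inhibitor Psmf1 rose (0.57 and 0.99). Adrm1, another ubiquitin receptor of the base, was at −0.91 in CCR2+ve, where it was called, and at −1.18 in CCR1/2+ve, where it was not. Of 5 assembly factors of the core, 0 rose and 1 fell in CCR2+ve and 1 rose and 1 fell in CCR1/2+ve, Psmg4 being the one that fell (−0.76 and −1.45).

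Of 10 shuttle and p97 genes, which carry tagged proteins to the proteasome or extract them, 2 rose and 4 fell in CCR2+ve and 3 rose and 4 fell in CCR1/2+ve. The shuttles Ubqln1 (−2.61 and −2.61), Ubqln2 (−2.49 and −2.01) and Rad23b (−1.82 and −1.76) were among those that fell in both. Vcp, the segregase itself, was not called (0.03 and 0.07), and its inflamed libraries spread to either side of the resting range. They were 182 to 346 CPM in CCR2+ve against 215 to 267 CPM at rest, and 147, 232 and 311 CPM in CCR1/2+ve against 179 to 224 CPM. Of 6 regulators of proteasome genes 1 rose and 3 fell in CCR2+ve, and 3 rose and 3 fell in CCR1/2+ve. Nfe2l1 rose by 0.81 and 0.87, and its partner Mafg fell, at −1.06 and −1.23. Psme1, Psme2, Paaf1 and Ngly1 were not analysed here, and the proliferation list was mixed, with 11 of 20 higher and 3 lower in inflamed CCR2+ve and 6 higher and 6 lower in inflamed CCR1/2+ve monocytes.

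The inflamed CCR1 libraries were set against each of the other inflamed groups, the 2 comparisons sharing their CCR1 libraries. Against inflamed CCR2+ve, 2 members were higher and 16 lower, beside 22.7% of all genes higher and 25.4% lower, and beside 30.1% and 37.3% of genes of at least 10 CPM. The median was −0.26 against −0.01 over all genes and −0.08 over genes of at least 10 CPM. Against inflamed CCR1/2+ve, 2 were higher and 22 lower, beside 20.2% and 23% of all genes and 26.2% and 36.5% of genes of at least 10 CPM. The median there was −0.39, against 0.00 over all genes and −0.10 over genes of at least 10 CPM. With the fold cutoff 1 was higher and 1 lower in each, Psmd5 and Psma7, beside 14.4% and 16.8% of all genes in the first comparison and 13.2% and 14.6% in the second. With upper-quartile scaling 3 members were higher and 11 lower against CCR2+ve, and 3 higher and 15 lower against CCR1/2+ve. The shares of all genes called under that scaling are not given here. The summed level of the members was 7764 ± 271 CPM (SD, n = 4), below inflamed CCR2+ve monocytes and above the resting groups. Neutrophil markers moved with these differences, as given above, and 20 of 20 proliferation genes were higher than in inflamed CCR2+ve (median 1.19) and 18 of 20 than in inflamed CCR1/2+ve monocytes (median 0.77). Their part in the result was not tested.

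The lower calls were spread unevenly over the particle, a difference that was not tested. Against inflamed CCR2+ve, 5 of 7 alpha and 4 of 6 beta genes were lower, with medians of −0.38 and −0.41, whereas 2 of 5 ATPases were lower, with a median of −0.12. Psma7 was the lowest member relative to the other groups. It counted 436, 444, 407 and 389.5 CPM in inflamed CCR1 libraries, 1039, 976, 962 and 936 CPM in inflamed CCR2+ve and 1071, 973 and 1110 CPM in inflamed CCR1/2+ve libraries, with no overlap (−1.22 ± 0.10, edgeR adjusted p = 1.2e-08, and −1.33 ± 0.09, edgeR adjusted p = 5.1e-08).

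Psma6, of the same ring, went the other way. It counted 301, 299, 297 and 306 CPM in inflamed CCR1 libraries, 219, 216, 172 and 152 CPM in inflamed CCR2+ve and 252, 167 and 173 CPM in inflamed CCR1/2+ve libraries (0.67 ± 0.12, edgeR adjusted p = 0.00011, and 0.61 ± 0.13, edgeR adjusted p = 0.0012). Each CCR1 library was above each library of the other groups. Psma4 counted 164, 185, 157 and 155 CPM, below its inflamed CCR2+ve libraries at 271, 257, 263 and 234 CPM (−0.63 ± 0.10, edgeR adjusted p = 7.0e-05) and its inflamed CCR1/2+ve libraries at 309.5, 294 and 257 CPM (−0.79 ± 0.10, edgeR adjusted p = 2.8e-05).

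In the beta ring, Psmb3 counted 342, 336, 337 and 332 CPM in inflamed CCR1 libraries, 507, 483, 444 and 436 CPM in inflamed CCR2+ve and 590.0, 568 and 521 CPM in inflamed CCR1/2+ve libraries (−0.47 ± 0.09, edgeR adjusted p = 0.00045, and −0.73 ± 0.08, edgeR adjusted p = 8.5e-06). Psmb1 counted 259, 261, 259 and 244 CPM, below the 467, 398 and 383 CPM of inflamed CCR1/2+ve libraries (−0.70 ± 0.09, edgeR adjusted p = 2.9e-05). Neither overlapped. Psmb6 counted 397, 355, 366 and 334 CPM and was called lower only against inflamed CCR1/2+ve (−0.48 ± 0.10, edgeR adjusted p = 0.0014), its value against CCR2+ve being −0.23 ± 0.10 (edgeR adjusted p = 0.075). Psmb7 counted 49.2, 58.6, 53.7 and 51.8 CPM and was called lower in both comparisons, at −0.58 and −0.64. It overlapped the inflamed CCR2+ve libraries, where replicate 4 was at 47.8 CPM, but not the inflamed CCR1/2+ve libraries. With 1 library left out the edgeR adjusted p against inflamed CCR2+ve reached 0.0499.

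Psmd5 was higher in inflamed CCR1 than in the other inflamed groups. It counted 54.9, 51.2, 55.6 and 21.7 CPM, above their 9.50 to 19.2 CPM and below the resting range of 122 to 165 CPM (1.52 ± 0.27, edgeR adjusted p = 0.00043, and 1.75 ± 0.41, edgeR adjusted p = 0.013). Without inflamed CCR1/2+ve replicate 3 the latter was not called (1.68, edgeR adjusted p = 0.053). Psmd8 counted 123, 121, 119 and 94.5 CPM and was lower than in inflamed CCR2+ve libraries (−0.92 ± 0.16, edgeR adjusted p = 0.00012). Psmb4, at 96.8, 97.1, 97.4 and 78.5 CPM, was not called against either group. The inducible subunits Psmb8, Psmb9 and Psmb10 were lower than in inflamed CCR2+ve monocytes, at −1.41, −0.72 and −1.76, so that 3 of 3 tested were lower. Of 5 assembly factors of the core 1 was higher, Psmg1 (1.30), and 2 were lower, among them Pomp, which matures the core (−1.35). Of 9 activators, inhibitors and proteasome-bound factors 5 were higher and 1 lower, Uchl5, a deubiquitinase bound to the base, being at 1.71 and Adrm1 at 1.30. These short lists, against inflamed CCR2+ve, stand beside 22.7% of all genes higher and 25.4% lower. Among genes of at least 10 CPM the shares were 30.1% and 37.3%, and the count of assembly factors lies near them.

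**Figure D5:**
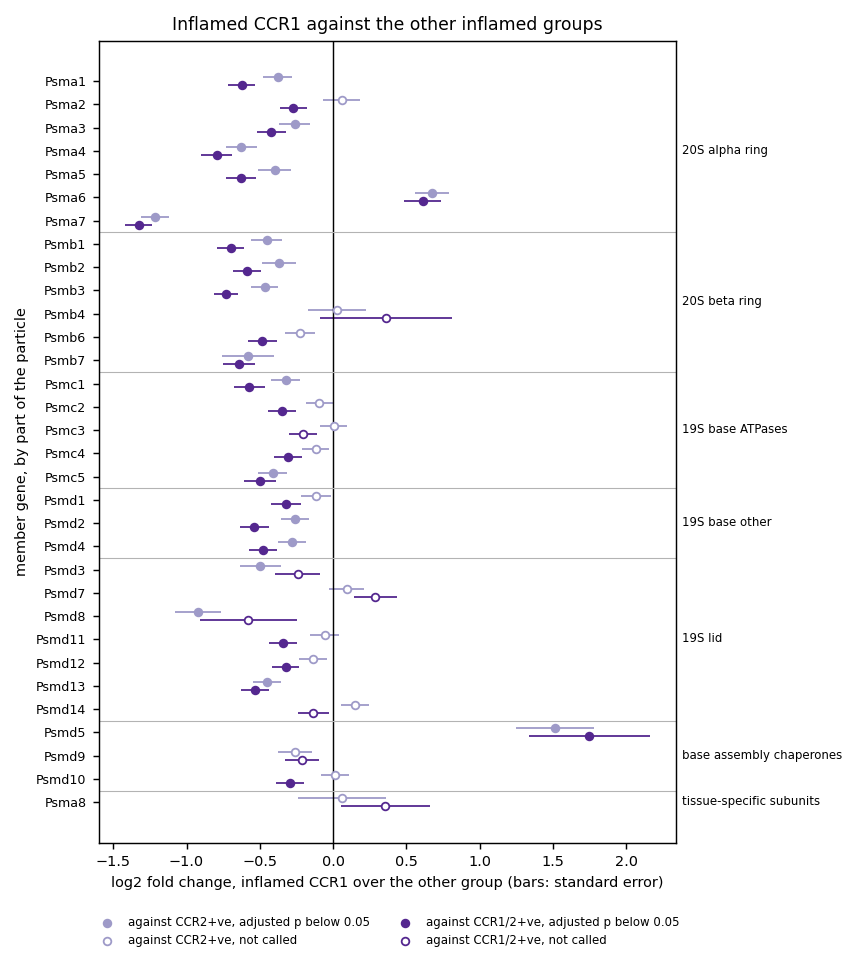
Log2 fold change of each member, inflamed CCR1 over inflamed CCR2+ve (light) and over inflamed CCR1/2+ve (dark), with its standard error; filled points have an adjusted p below 0.05. Most members lie left of 0, Psma7 furthest at −1.22 and −1.33, and Psmd5 and Psma6 lie to the right.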

How the data were processed

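Read counts per gene were deposited by the authors as whole numbers. Per the labels and the study's methods, they trimmed the reads, aligned them to GRCm38 with Ensembl annotation using STAR 2.7.10a, and kept uniquely aligned reads. The strand setting of the counting is not given in the sources used here, so overlapping antisense exons (at most 25.5% of a member's exon bases, Psmd9) cannot be told apart. Of the count columns 1 matched no sample label and was not used.

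From the deposited counts of 19 libraries (22268658 to 30502009 reads each), genes averaging 1 read or more were kept, and each pair of groups was fitted on its own libraries with edgeR 4.0.16 (TMM, robust quasi-likelihood F test, two-sided) in R 4.3.3. P-values were Benjamini-Hochberg adjusted over all 18652 genes, and a gene was called at an adjusted p below 0.05. A standard error is the size of the log2 fold change over the square root of its F statistic. CPM used TMM factors of all 19 libraries. Exon bases and positions came from GENCODE M21 on GRCm38. The self-test on simulated counts was checked before the fits. Alternatives were DESeq2 1.42.0, other scalings, no filter, 1 fit of all libraries, a replicate block, a fold cutoff and each library left out.

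Library values are given for up to 4 members per direction and comparison with the smallest adjusted p, for Psmb6, Psmb7 and Psma8, and for the highest and lowest levels per kb. The values of a few listed genes are not reported here. The members and lists were chosen with earlier results of these data known. Replicate numbers were taken to pair samples where the deviations of same-numbered libraries from their group means correlated at over 0.1 in every pair, which held for the resting groups (r = 0.334 to 0.594) and for inflamed CCR1 with inflamed CCR2+ve (r = 0.161 to 0.287), and in no other comparison, inflamed against resting CCR1/2+ve being at 0.0769 to 0.208.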

Additional observations from a re-analysis of the deposited data

Results flagged for a closer look

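In groups of 4 libraries, 1 library stood apart from the other 3 in 10 of 160 tests (Dixon's test) of member levels and summed levels, all 10 being member levels, and chance alone flags about 5% of groups. Of these 6 were inflamed CCR1 replicate 4, which was low for Psma3 (216.59 CPM, the others 242 to 244), Psmb1 (243.96 CPM, the others 259 to 261), Psmb2 (281.49 CPM, the others 308 to 311), Psmb4 (78.462 CPM, the others 96.8 to 97.4), Psmd5 (21.664 CPM, the others 51.2 to 55.6) and Psmd8 (94.475 CPM, the others 119 to 123).

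Resting CCR2+ve replicate 1 was low for Psmb7 (75.655 CPM, the others 87.5 to 89.7) and for Psmd1 (129.4 CPM, the others 146 to 148). Resting CCR2+ve replicate 4 was low for Psmd14 (145.16 CPM, the others 153 to 154). Resting CCR1/2+ve replicate 2 was low for Psmd10 (64.14 CPM, the others 72.9 to 73.3).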

How the results depend on the processing

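For resting CCR1/2+ve against CCR2+ve, 9 members were higher; the count was 15 with the replicate block, 1 with all 19 libraries in one fit, 0 with the fold cutoff, and 3 to 10 with 1 library left out. The low counts came without resting CCR2+ve replicate 3 (3), resting CCR2+ve replicate 4 (4), resting CCR1/2+ve replicate 4 (4) or resting CCR1/2+ve replicate 3 (5). With the fold cutoff 4 members rose in inflamed CCR2+ve, 3 rose in inflamed CCR1/2+ve, and inflamed CCR1 had 1 higher and 1 lower against each other inflamed group. Against inflamed CCR1/2+ve, where 2 were higher, the block gave 1 and leaving out 1 library gave 1 (inflamed CCR1/2+ve replicate 3) to 4 (inflamed CCR1/2+ve replicate 4). The cause of these changes was not tested. Apart from the fold cutoff, shares of all genes are given for the main fit only, so the changes may not be particular to the members. The block moved no other count of members by over 1.5 times, and in the comparisons whose numbers do not pair, same-numbered libraries correlated at −0.352 to 0.527.

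Of the 101 fold changes of members that were called, none changed direction in 1367 refits, and 110 of these refits were no longer past the threshold. Fold changes that were not called were not refitted one by one. Scaling moved the median of all genes from −0.10 to 0.08 (upper quartile) in inflamed against resting CCR2+ve and from −0.25 to −0.06 in CCR1/2+ve monocytes, with 26 and 25 members higher and 3 and 3 lower. Under that scaling the shares of all genes called are not given here. Psma8, with under 4 CPM in every library, is limited by depth.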

Other observations

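The replication licensing complex, which the proliferation list holds in part, had genes called in either direction. In inflamed against resting CCR2+ve monocytes Mcm2 (1.13), Mcm3 (0.47), Mcm4 (0.33), Mcm5 (1.05) and Mcm7 (0.86) rose on the log2 scale and Mcm6 fell, at −2.78, all by edgeR at an adjusted p below 0.05. In CCR1/2+ve monocytes Mcm2, Mcm5 and Mcm7 rose by 0.57, 0.68 and 0.37 and Mcm6 fell, at −3.30. Of genes of at least 10 CPM, 38.9% were higher and 32.7% lower in inflamed CCR2+ve, and 39.8% and 31.8% in inflamed CCR1/2+ve monocytes. Mixed directions may therefore not be particular to this complex. The Mcm genes were singled out after the values were seen.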
